A study of Mus musculus with 13 samples.

Results

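The genes described here are 10 ligands and receptors of TGF-β and activin signalling: the ligand genes Tgfb1, Tgfb2, Tgfb3 and Inhba, and the receptor genes Tgfbr1, Tgfbr2, Tgfbr3, Acvr1, Acvr2a and Acvr2b. They were taken by name, with every probe set annotated to exactly 1 of them, which gave 25 of the 45037 probe sets tested, 9 for ligands and 16 for receptors. Expression was measured on 13 Affymetrix mouse genome arrays of presumptive intervertebral disc (IVD) and vertebrae, captured by laser from the lumbar spine of E13.5 mouse embryos. The groups were mutant IVD (Cre+;Tgfbr2lox/lox, 4 arrays), control IVD (Cre-;Tgfbr2lox/wt, 3 arrays), mutant vertebrae (3 arrays, whose labels spell the genotype Cre+;Tgrbr2lox.lox) and control vertebrae (Cre-;Tgfbr2lox/wt, 3 arrays). The controls therefore also carried 1 floxed allele, and had no Cre. Cre was driven by the Col2a promoter, so deletion of Tgfbr2 is limited to cells that have used this promoter and does not take place in every cell type that a captured area can hold. IVD areas were mostly presumptive annulus fibrosus, with some notochord.

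TGF-β ligands bind TGFBR2, a receptor kinase that then recruits and phosphorylates the type I receptor TGFBR1, and activated TGFBR1 phosphorylates SMAD2 and SMAD3. TGFBR3, or betaglycan, is a coreceptor that presents TGF-β2, which binds TGFBR2 poorly alone. Activins, dimers of chains such as the βA chain encoded by Inhba, bind the type II receptors ACVR2A and ACVR2B, while ACVR1 is a type I receptor best known for BMP signalling. In the axial skeleton, Tgfb3 is known as an early marker of the place where the disc forms between the vertebral bodies.

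Each deposited value is a log2 signal relative to the median of its probe set over the arrays, so a value compares arrays and gives no level of expression, and genes cannot be ranked by level. In captured tissue, fewer cells of a type and less RNA per cell cannot be told apart. Several arrays stood apart. The mean of 5 genes of IVD and annulus (Pax1, Pax9, Fmod, Mkx and Scx) was -1.43 in mutant IVD 3, which goes against its label, compared with 0.73 to 1.18 in the other mutant IVD arrays, 0.37 to 1.14 in control IVD, -1.34 to -0.41 in mutant vertebrae and -0.53 to -0.22 in control vertebrae. The mean of 5 genes of vertebral cartilage (Col2a1, Acan, Matn1, Col9a1 and Sox9) was 0.16 in mutant IVD 3. It was -1.76 to -0.60 in the other mutant IVD arrays and -1.35 to -0.39 in control IVD. In mutant vertebrae it was 0.22 to 0.92, and in control vertebrae -0.14 to 0.67, so mutant IVD 3 lay with the vertebrae in this mean too. Mutant IVD 3 also had the highest mean of 6 neuronal genes (3.67), followed by control vertebrae 3 (3.07). Liver transcripts had a mean of 3.46 to 6.42 in mutant IVD 3, mutant IVD 4, control IVD 1 and control vertebrae 1, and of at most 0.25 in the other arrays. The values of mutant vertebrae 1 were the most spread, with an SD of 0.74 over all probe sets against at most 0.52 in any other array. Mutant IVD 1, 2 and 4 and mutant vertebrae 1 and 2 had high Y-linked transcripts and low Xist. Mutant IVD 3, mutant vertebrae 3 and every control array had the reverse, so sex moved with genotype.

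Differences were tested with limma in a fit of all 4 groups, with p-values adjusted over all 45037 probe sets by the Benjamini-Hochberg method and a threshold of 0.05. None of the 25 member probe sets passed in any comparison of this fit, in which 0% of all probe sets passed between mutant and control IVD, 0% between mutant and control vertebrae, 0% between control IVD and control vertebrae, 0.0155% between mutant IVD and mutant vertebrae and 0% in the test of whether the tissue difference depended on genotype. At an unadjusted p under 0.05, the members numbered 5 of 25 between mutant and control IVD (3.13% of all probe sets), 3 between mutant and control vertebrae (2.61%), 2 between the control tissues (2.45%), 6 between the mutant tissues (8.07%) and 0 in the interaction (1.37%). All of these members had the higher mean in the group named first (mutant, or IVD between tissues). Among all probe sets at this p, so did 1029 of 1411, 784 of 1177, 562 of 1105 and 1960 of 3634 in the same order. The median difference of the 25 member probe sets was 0.10, 0.13, 0.09 and 0.13 in the first 4 of these comparisons, beside 0.05, 0.05, -0.02 and -0.02 over all probe sets. The number at this p between mutant and control IVD was 2 without mutant IVD 3 (2.88% of all probe sets) and 2 without control IVD 3 (2.44%). With quantile normalisation it was 7 (4.33%), of which 5 had a higher and 2 a lower mean in mutant IVD. Of all probe sets, 50.1% then had the higher mean in mutant IVD, beside 59.6% without it.

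**Figure D1:**
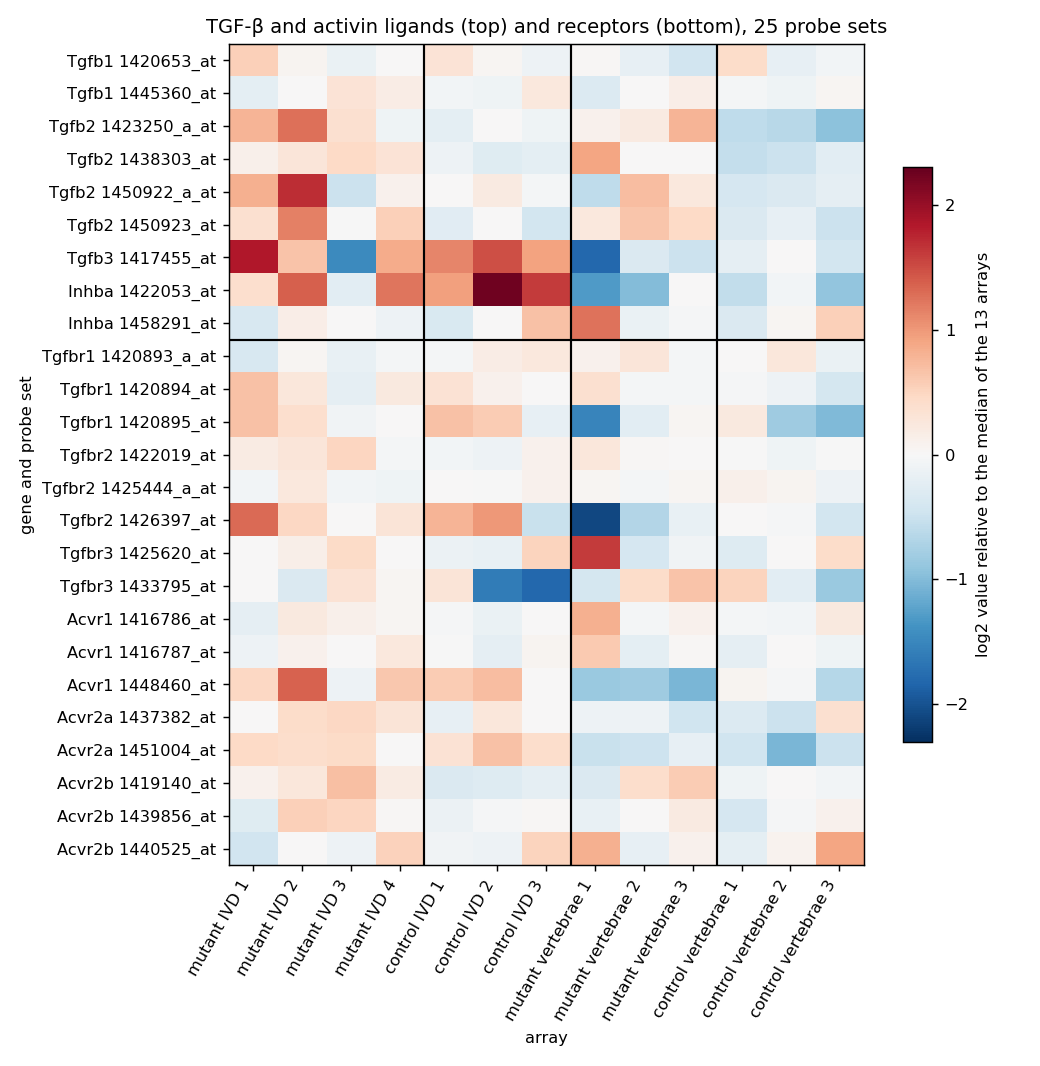
Log2 value of each of the 25 member probe sets (rows, ligands above and receptors below the horizontal line) in each of the 13 arrays (columns, by group), centred on the probe set median. Tgfb3 and Inhba 1422053_at were high in control IVD and in most mutant IVD arrays, the Tgfb2 rows were highest in mutant arrays, and mutant vertebrae 1 held several of the extreme values, such as -2.10 for Tgfbr2 1426397_at.

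Tgfbr2, the gene deleted by Cre, overlapped between mutant and control IVD with all 3 of its probe sets. With probe set 1426397_at the log2 value was 1.31, 0.48, 0.00 and 0.30 in mutant IVD, against 0.78, 0.99 and -0.52 in control IVD. In vertebrae it was -2.10, -0.68 and -0.17 in mutants, against 0.00, -0.02 and -0.42 in controls. The groups overlapped in both tissues, and the low mutant mean in vertebrae rested mainly on mutant vertebrae 1, the array of widest spread.

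The differences of 1426397_at between mutant and control were 0.10 in IVD (standard error 0.48) and -0.84 in vertebrae (standard error 0.51, adjusted p = 0.998 from limma), and the vertebral difference was -0.28 without mutant vertebrae 1 and -1.25 without mutant vertebrae 3. Between mutant IVD and mutant vertebrae the groups did not overlap, with a mean 1.51 higher in mutant IVD (standard error 0.48, adjusted p = 0.382), or 0.95 higher without mutant vertebrae 1 and 1.91 without mutant vertebrae 3. The 2 other probe sets varied little. Probe set 1425444_a_at ran from -0.11 to 0.24 over all 13 arrays, and 1422019_at from -0.11 to 0.50. Their differences between mutant and control IVD were -0.02 and 0.25 (standard errors 0.13 and 0.15), and in vertebrae -0.01 and 0.13 (standard errors 0.14 and 0.16). Correlation between the probe sets over the arrays was low, with r from -0.22 to 0.13. The floxed segment is the second exon, and which exons these probe sets cover was not analysed here, so none of these values tests the deletion.

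**Figure D2:**
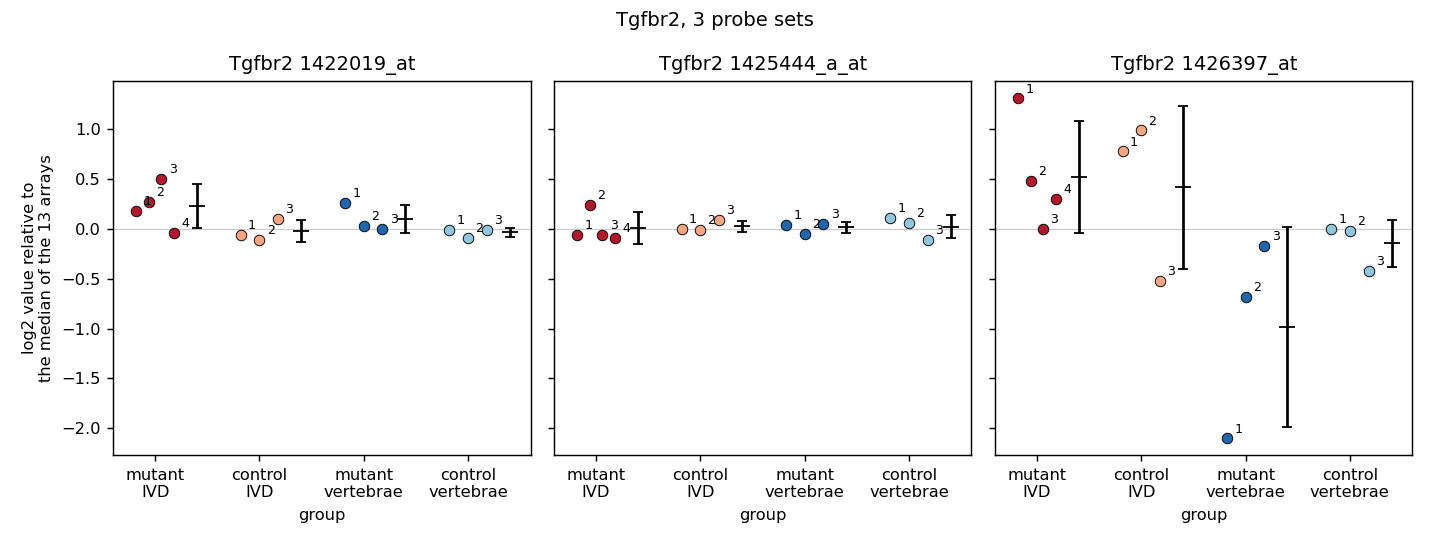
Log2 value of the 3 Tgfbr2 probe sets in each array by group (vertical axis, centred on the probe set median). Points are arrays with their replicate number and bars show the mean ± SD. Probe set 1426397_at spread from -2.10 to 1.31, while the other 2 stayed between -0.11 and 0.50.

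Among the ligands, Tgfb2, which encodes TGF-β2, had a higher mean in mutants than in controls in both tissues and with all 4 of its probe sets. Probe set 1423250_a_at had values of 0.78, 1.26, 0.36 and -0.09 in mutant IVD, against -0.23, 0.00 and -0.10 in control IVD. In vertebrae the same probe set had 0.10, 0.20 and 0.79 in mutants, against -0.59, -0.63 and -0.95 in controls. All 3 mutant vertebrae lay above all 3 control vertebrae, and in IVD only mutant IVD 4 fell within the range of the controls.

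The difference of 1423250_a_at was 1.09 in vertebrae (standard error 0.30, adjusted p = 0.998 from limma) and 0.69 in IVD (standard error 0.28, adjusted p = 1.0). For 1450923_at the values were 0.36, 1.16, -0.01 and 0.54 in mutant IVD, against -0.26, 0.00 and -0.43 in control IVD. They were 0.24, 0.63 and 0.46 in mutant vertebrae, against -0.34, -0.18 and -0.50 in control vertebrae. The vertebral groups were again apart, and in IVD only mutant IVD 3 lay within the range of the controls.

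The difference of 1450923_at was 0.74 in IVD (standard error 0.24) and 0.78 in vertebrae (standard error 0.26). For 1438303_at the values were 0.12, 0.27, 0.45 and 0.32 in mutant IVD, against -0.11, -0.28 and -0.22 in control IVD. They were 0.90, 0.00 and 0.01 in mutant vertebrae, against -0.54, -0.50 and -0.25 in control vertebrae. No mutant value of this probe set fell within the range of the controls in either tissue, although the mean of mutant vertebrae rested on mutant vertebrae 1.

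The difference of 1438303_at was 0.49 in IVD (standard error 0.21) and 0.74 in vertebrae (standard error 0.23), and the vertebral difference was 0.44 without mutant vertebrae 1. The fourth probe set, 1450922_a_at, was less even. It ran from -0.49 to 1.69 in mutant IVD, against -0.05 to 0.20 in control IVD, and from -0.58 to 0.71 in mutant vertebrae, against -0.38 to -0.20 in control vertebrae. Its differences were 0.48 and 0.43 (standard errors 0.43 and 0.46), and its lowest mutant values were those of mutant IVD 3 and mutant vertebrae 1, the arrays that stood apart. Single arrays carried these differences. In IVD the difference was 0.09 without mutant IVD 2 and 0.81 without mutant IVD 3, and in vertebrae it was 0.14 without mutant vertebrae 2 and 0.78 without mutant vertebrae 1. Omission of any 1 array left 0.46 to 0.91 for 1423250_a_at and 0.53 to 0.92 for 1450923_at in IVD, where the lowest value was that without mutant IVD 2. Averaged over the 4 probe sets, Tgfb2 differed by 0.60 in IVD and 0.76 in vertebrae (adjusted p = 1.0 and 0.999 from limma).

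Since all control arrays had the Xist-high pattern, the Tgfb2 values were also set beside sex. The mutant arrays that shared the controls' Xist-high pattern were mutant IVD 3 and mutant vertebrae 3. In mutant vertebrae 3 all 4 probe sets lay above every control vertebrae array. In mutant IVD 3, 1423250_a_at and 1438303_at lay above every control IVD array, 1450923_at lay within their range, and 1450922_a_at lay below it. With the mean of Y-linked genes as covariate the differences in IVD were 0.74 for 1423250_a_at, 0.52 for 1438303_at and 0.42 for 1450923_at, and in vertebrae they were 1.12, 0.76 and 0.51. That of 1450922_a_at turned negative in this fit, at -0.21 in IVD and -0.15 in vertebrae. Y-linked means were -0.18 to -0.01 in the controls, -0.02 in mutant IVD 3 and -0.03 in mutant vertebrae 3, but 1.55 to 2.35 in the other mutant arrays. The fits with this covariate therefore rest largely on mutant IVD 3 and mutant vertebrae 3. Of these, mutant IVD 3 is the array whose IVD markers went against its label. The part of sex in the remaining difference was not tested further.

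**Figure D3:**
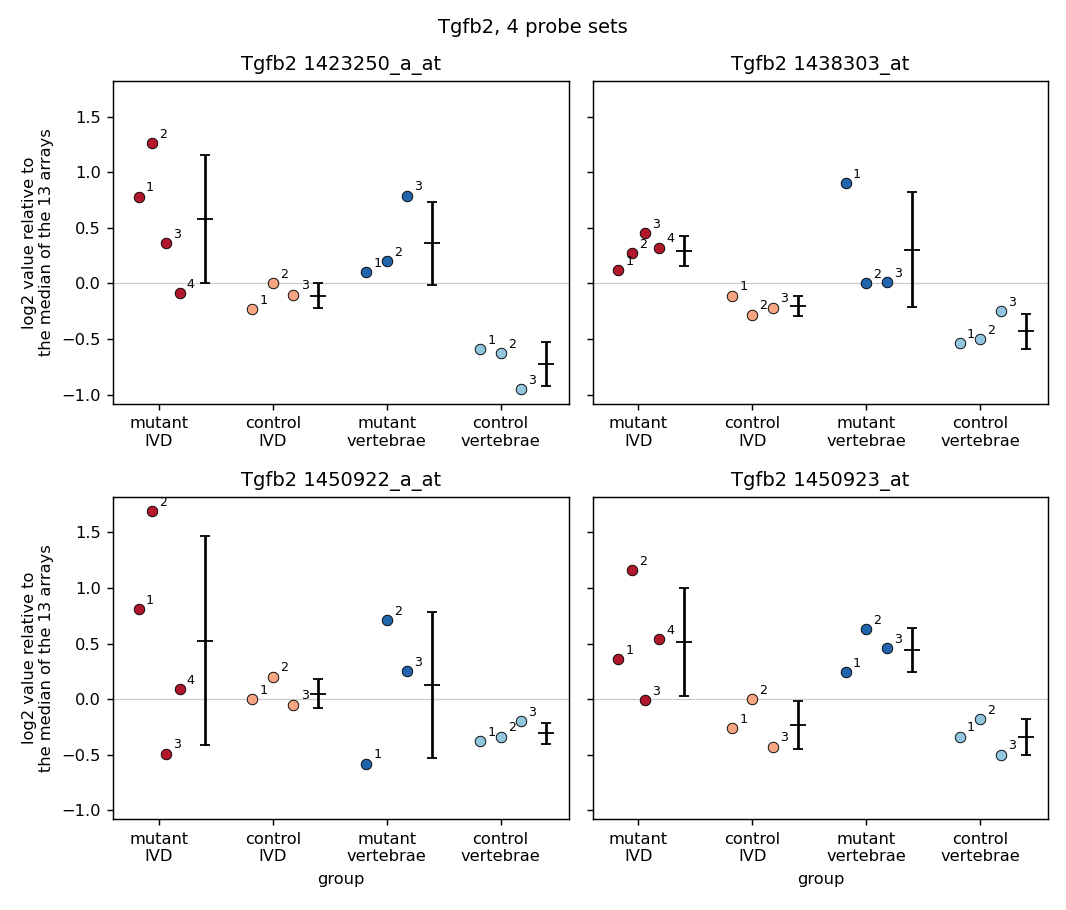
Log2 value of the 4 Tgfb2 probe sets in each array by group (vertical axis, centred on the probe set median). Points are arrays with their replicate number and bars show the mean ± SD. With 3 of the 4 probe sets every mutant vertebrae array lay above every control vertebrae array.

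The promoter of Tgfb2 is shown because this ligand had a higher mean in mutants with each probe set. It is the RefSeq sequence of GRCm38.p6, from 250 bases before to 50 bases after the gene start, at chr1:186705940-186706239 on the minus strand. The strings searched on both strands were TATAAA (the TATA box), CACGTG (the E-box), TGACG (the core of the cAMP response element), CAGAC (the core of the Smad-binding CAGA box) and GGGCGG (the GC box), and capitals mark every match.
Tgfb2: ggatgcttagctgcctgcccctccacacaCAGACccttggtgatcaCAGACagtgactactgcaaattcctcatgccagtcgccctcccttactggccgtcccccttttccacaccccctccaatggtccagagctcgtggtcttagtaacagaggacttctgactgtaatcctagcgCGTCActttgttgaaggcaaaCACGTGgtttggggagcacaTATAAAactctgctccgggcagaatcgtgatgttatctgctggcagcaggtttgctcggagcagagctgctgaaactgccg
It held TATAAA with its first base at -31 from the gene start, CACGTG at -51, TGACG on the opposite strand at -72, and CAGAC at -221 and -204. Of 32544 promoter windows of this length, 13.6% held TATAAA, 7.17% CACGTG, 20.9% TGACG, 49.5% CAGAC and 35.9% GGGCGG.

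Tgfb3, a ligand and marker of the forming disc, was higher in the disc of the controls by a like amount within each array number. Its single probe set had values of 1.13, 1.49 and 0.93 in control IVD, against -0.20, 0.00 and -0.43 in control vertebrae. Within the 3 array numbers the control IVD value exceeded that of control vertebrae by 1.33, 1.49 and 1.36. All control IVD arrays lay above all control vertebrae arrays.

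In the fit of all arrays this difference was 1.39 (standard error 0.65, adjusted p = 1.0 from limma). Which arrays share an embryo is not stated, but equal numbers correlated in the controls. Unequal numbers were not compared, and control IVD 1 and control vertebrae 1 both had liver transcripts. With the array number as a random replicate block in the control arrays, Tgfb3 was the only member that passed the threshold, with a standard error of 0.13 and an adjusted p of 0.0326. In that fit 0.0933% of all probe sets passed, and 10.8% had an unadjusted p under 0.05, as did 9 of the 25 member probe sets. The call rests on the assumed pairing, and as a fixed block in limma the array number gave an adjusted p of 0.0579. In mutants the values of Tgfb3 were 1.84, 0.66, -1.46 and 0.85 in mutant IVD, against -1.80, -0.34 and -0.49 in mutant vertebrae. The low IVD value was that of mutant IVD 3, the array whose IVD markers went against its label, and the lowest vertebral value was that of mutant vertebrae 1.

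The difference between mutant tissues was 1.35 (standard error 0.61, adjusted p = 0.61), and it was 1.99 without mutant IVD 3, 0.89 without mutant vertebrae 1 and 1.53 without both (adjusted p = 0.0722, 0.838 and 0.14). Between mutant and control IVD, Tgfb3 differed by -0.71 (standard error 0.61, adjusted p = 1.0), and omission of mutant IVD 3 gave -0.07, that of mutant IVD 1 -1.17. Without the 4 arrays with liver transcripts the sign turned, at 0.04. With the mean of Y-linked genes as covariate this value was -1.71 (adjusted p = 1.0). In vertebrae the mutant minus control difference was -0.66 (standard error 0.65), -0.20 without mutant vertebrae 1 and -1.51 with the covariate. Both values with the covariate rest largely on mutant IVD 3 and mutant vertebrae 3, the mutant arrays with low Y-linked transcripts.

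Inhba, which encodes the βA chain of activin A and inhibin A, had the largest member difference between the control tissues, with 1 of its 2 probe sets. Probe set 1422053_at had values of 0.94, 2.23 and 1.60 in control IVD, against -0.56, -0.06 and -0.90 in control vertebrae. In mutants it had 0.39, 1.38, -0.24 and 1.23 in IVD, against -1.3, -1.0 and 0.00 in vertebrae. The control groups did not overlap, and in the mutants only mutant IVD 3 fell within the range of the vertebrae.

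The difference of 1422053_at was 2.10 in controls, a 4.29-fold difference (standard error 0.48, adjusted p = 1.0 from limma). In the fit with the random replicate block its standard error was 0.25 and its adjusted p 0.0639, and the differences were 1.5, 2.29 and 2.51 in the 3 assumed pairs. Between the mutant tissues it was 1.46 (standard error 0.45, adjusted p = 0.367). Mutant IVD averaged 0.69 ± 0.76 and control IVD 1.59 ± 0.64 (SD, 4 and 3 arrays), a difference of -0.90 (standard error 0.45, adjusted p = 1.0) that was -0.59 without mutant IVD 3. Omission of any 1 array left -1.23 (without control IVD 1) to -0.585 (without control IVD 2), and the sign held in all 24 alternatives. Probe set 1458291_at did not follow 1422053_at (r = -0.24 over the 13 arrays). This second probe set differed by 0.02 between the control tissues, with a standard error of 0.38, and its highest value, 1.25, was that of mutant vertebrae 1. The parts of the transcript that the 2 probe sets cover were not analysed here.

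The promoter of Inhba is shown because of this difference between tissues. It lies at chr13:16011601-16011900 of GRCm38.p6 on the plus strand, with the same marks.
Inhba: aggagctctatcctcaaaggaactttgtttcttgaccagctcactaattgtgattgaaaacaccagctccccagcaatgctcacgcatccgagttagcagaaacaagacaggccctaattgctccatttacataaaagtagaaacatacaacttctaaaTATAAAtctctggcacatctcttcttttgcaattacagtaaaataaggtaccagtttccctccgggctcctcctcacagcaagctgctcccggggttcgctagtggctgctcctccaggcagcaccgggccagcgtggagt
It held TATAAA, with its first base at -91, and none of the other 4 strings. Its G and C content was 47.7%, against a median of 53.0% over all windows.

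Tgfb1, which encodes the founding member of the TGF-β family, gave the least variation among the ligands. Its 2 probe sets ran from -0.44 to 0.54 over all arrays, with r = -0.53 between them. In the 4 comparisons their differences lay between -0.26 and 0.31, none with an unadjusted p under 0.05 in limma.

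Acvr2a, a type II receptor for activins, had its widest difference between control tissues with probe set 1451004_at, which had values of 0.34, 0.67 and 0.40 in control IVD, against -0.45, -1.06 and -0.50 in control vertebrae. In mutants the values were 0.46, 0.40, 0.44 and 0.00 in IVD, against -0.51, -0.48 and -0.18 in vertebrae. The IVD and vertebrae groups did not overlap in either genotype, and here mutant IVD 3 lay with the rest of its group.

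The difference of 1451004_at was 1.14 in controls (standard error 0.21, adjusted p = 0.638 from limma), and the random replicate block gave an adjusted p of 0.126. In mutants it was 0.71 (standard error 0.19, adjusted p = 0.309), and 0.62 without mutant IVD 3 and mutant vertebrae 1. The test of whether the tissue difference depended on genotype gave -0.42 (standard error 0.28, adjusted p = 1.0). The other Acvr2a probe set, 1437382_at, differed by 0.53 between the mutant tissues (standard error 0.22), where its groups did not overlap, and by 0.18 between the control tissues (standard error 0.23).

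The promoter of Acvr2a, at chr2:48813859-48814158 of GRCm38.p6 on the plus strand, is shown beside those of the ligands as one of a different base composition.
Acvr2a: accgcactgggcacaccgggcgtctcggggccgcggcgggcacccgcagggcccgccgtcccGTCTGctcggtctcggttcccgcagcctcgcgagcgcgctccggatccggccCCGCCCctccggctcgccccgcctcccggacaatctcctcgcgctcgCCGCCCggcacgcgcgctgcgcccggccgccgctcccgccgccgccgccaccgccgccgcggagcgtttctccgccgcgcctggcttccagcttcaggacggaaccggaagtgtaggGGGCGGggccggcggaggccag
It held GGGCGG at 29 and, on the opposite strand, at -136 and -89, with CAGAC on the opposite strand at -188. It had no TATA box, E-box or cAMP response element core. Its G and C content was 80.3% and it had 54 CpG pairs, against a median of 7 over all windows, 10 in Tgfb2 and 7 in Inhba. RefSeq windows were found for 8 of the 10 genes, and Tgfb3 and Tgfbr3 are named only.

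Acvr1, a type I receptor, had its widest difference between the mutant tissues, with probe set 1448460_at. Its values were 0.47, 1.36, -0.12 and 0.62 in mutant IVD, against -0.86, -0.81 and -1.06 in mutant vertebrae. In controls they were 0.58, 0.71 and 0.00 in IVD, against 0.07, -0.03 and -0.66 in vertebrae. The mutant groups did not overlap, the control groups did, and all mutant vertebrae lay below all control vertebrae.

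The difference between the mutant tissues was 1.49 (standard error 0.31, adjusted p = 0.186 from limma). It passed the threshold without mutant IVD 3, at 1.73 (adjusted p = 0.0353), but not when mutant vertebrae 1 was left out too, at 1.75 (adjusted p = 0.092). Without mutant IVD 3, 177 of all 45037 probe sets passed between the mutant tissues, against 7 in the fit of all arrays and 78 without both arrays. In controls the difference of 1448460_at was 0.63 (standard error 0.33). Mutant vertebrae averaged -0.91 ± 0.13 and control vertebrae -0.20 ± 0.40 (SD, n = 3 each), a difference of -0.71 with a standard error of 0.33. The difference was -1.10 with the Y-linked covariate (adjusted p = 1.0 from limma), a fit that rests largely on mutant IVD 3 and mutant vertebrae 3. The interaction was 0.86 (standard error 0.46, adjusted p = 1.0). The other probe sets, 1416786_at and 1416787_at, correlated with each other (r = 0.84) but not with 1448460_at (r = -0.37 and -0.13), and differed by -0.24 and -0.08 between the mutant tissues. Both had their highest value in mutant vertebrae 1, at 0.82 and 0.61.

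**Figure D4:**
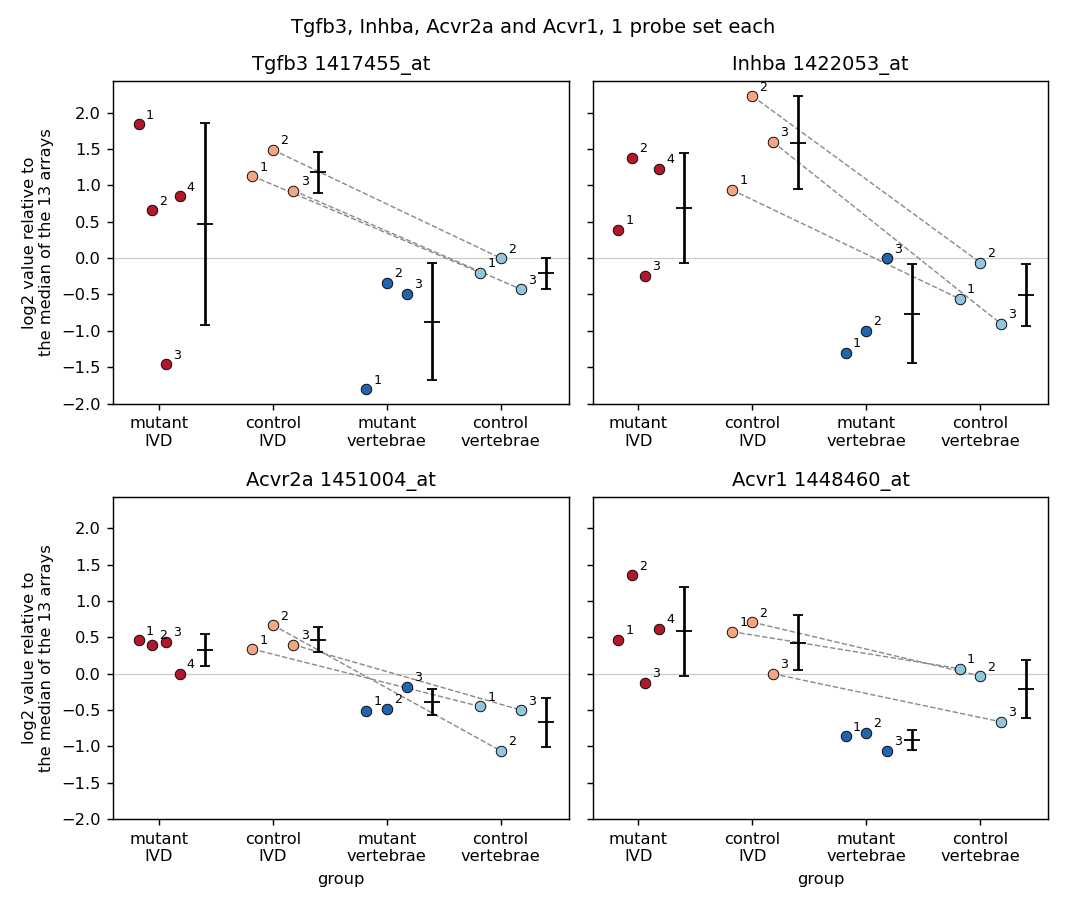
Log2 value of Tgfb3 1417455_at, Inhba 1422053_at, Acvr2a 1451004_at and Acvr1 1448460_at in each array by group (vertical axis, centred on the probe set median). For each gene the probe set shown is that with the largest sum of its IVD minus vertebrae differences in controls and mutants, so the direction was selected. Points are arrays with their replicate number, bars show the mean ± SD, and dashed lines join control arrays of the same number. The IVD array is the higher of each pair shown. With each of the other probe sets of Inhba, Acvr2a and Acvr1, the IVD array was the lower in at least 1 pair.

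The remaining receptors gave smaller or less even differences. Tgfbr1, the type I receptor of TGF-β, had 1 probe set, 1420895_at, with a difference of 0.90 between the control tissues (standard error 0.43) and 0.82 between the mutant tissues (standard error 0.40), where it was 0.34 without mutant vertebrae 1. Its values were 0.67, 0.59 and -0.19 in control IVD, against 0.22, -0.82 and -1.02 in control vertebrae. The groups overlapped, but within each array number the IVD value was the higher, by 0.45, 1.41 and 0.83. The random replicate block gave an adjusted p of 0.298 in limma. Probe set 1420894_at did not overlap between the control tissues, but differed by only 0.32 (standard error 0.22, adjusted p = 1.0 from limma), and 1420893_a_at by 0.09. Mutant minus control differences of the 3 probe sets lay between -0.26 and 0.27 in both tissues.

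Tgfbr3, the coreceptor, had 1 probe set, 1433795_at, with values of 0.00, -0.33, 0.34 and 0.04 in mutant IVD, against 0.30, -1.60 and -1.80 in control IVD. The controls themselves were split, with control IVD 1 within the range of the mutants. The difference was 1.05 (standard error 0.48, adjusted p = 1.0 from limma), and omission of a control IVD array gave 1.72 (array 1), 0.77 (array 2) or 0.67 (array 3). Between the control tissues 1433795_at had the largest member difference with a lower mean in IVD, at -0.85 (standard error 0.51). Control vertebrae had 0.52, -0.24 and -0.86, so the groups overlapped, while within the 3 array numbers IVD minus vertebrae was -0.23, -1.36 and -0.95. The adjusted p was 0.488 with the random and 0.3 with the fixed replicate block in the controls (limma), and omission of 1 array gave -1.51 (without control IVD 1) to -0.46 (without control IVD 3). The second probe set, 1425620_at, differed by 0.07 between mutant and control IVD, and its highest value, 1.60, was that of mutant vertebrae 1.

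Acvr2b, the second type II receptor for activins, had probe set 1419140_at at 0.10, 0.26, 0.70 and 0.19 in mutant IVD, against -0.33, -0.30 and -0.20 in control IVD. The groups did not overlap, and the highest value was that of mutant IVD 3. The difference was 0.59 (standard error 0.22, adjusted p = 1.0 from limma), and 0.46 without mutant IVD 3. In vertebrae the values were -0.33, 0.41 and 0.58 in mutants, against -0.09, 0.00 and -0.07 in controls, a difference of 0.28 (standard error 0.23) that was 0.55 without mutant vertebrae 1 and 0.10 without mutant vertebrae 3. The other probe sets of Acvr2b, 1439856_at and 1440525_at, differed by 0.24 and -0.11 between mutant and control IVD.

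Groups without overlap were counted over all 25 member probe sets. Between mutant and control IVD there were 2 (1 each of Tgfb2 and Acvr2b), where 4.61% of all probe sets did not overlap. Between mutant and control vertebrae there were 5 (5.56% of all), of which 3 of Tgfb2 and 1422019_at of Tgfbr2 were higher in mutants and 1448460_at of Acvr1 was lower. Between control IVD and control vertebrae there were 7 (7.44%), and 6 of these were higher in IVD: 2 of Tgfb2 and 1 each of Tgfb3, Inhba, Tgfbr1 and Acvr2a. The other, 1419140_at of Acvr2b, was lower. The 2 of Tgfb2 were 1423250_a_at, with a difference of 0.61, and 1450922_a_at, with 0.36 (standard errors 0.30 and 0.46). Its probe sets 1438303_at and 1450923_at overlapped, with differences of 0.23 and 0.11 (standard errors 0.23 and 0.26). Between mutant IVD and mutant vertebrae there were 4 (6.63%), all higher in IVD, from Tgfbr2, Acvr1 and Acvr2a. The control arrays serve in 3 of these comparisons, so the counts are not independent of each other.

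**Figure D5:**
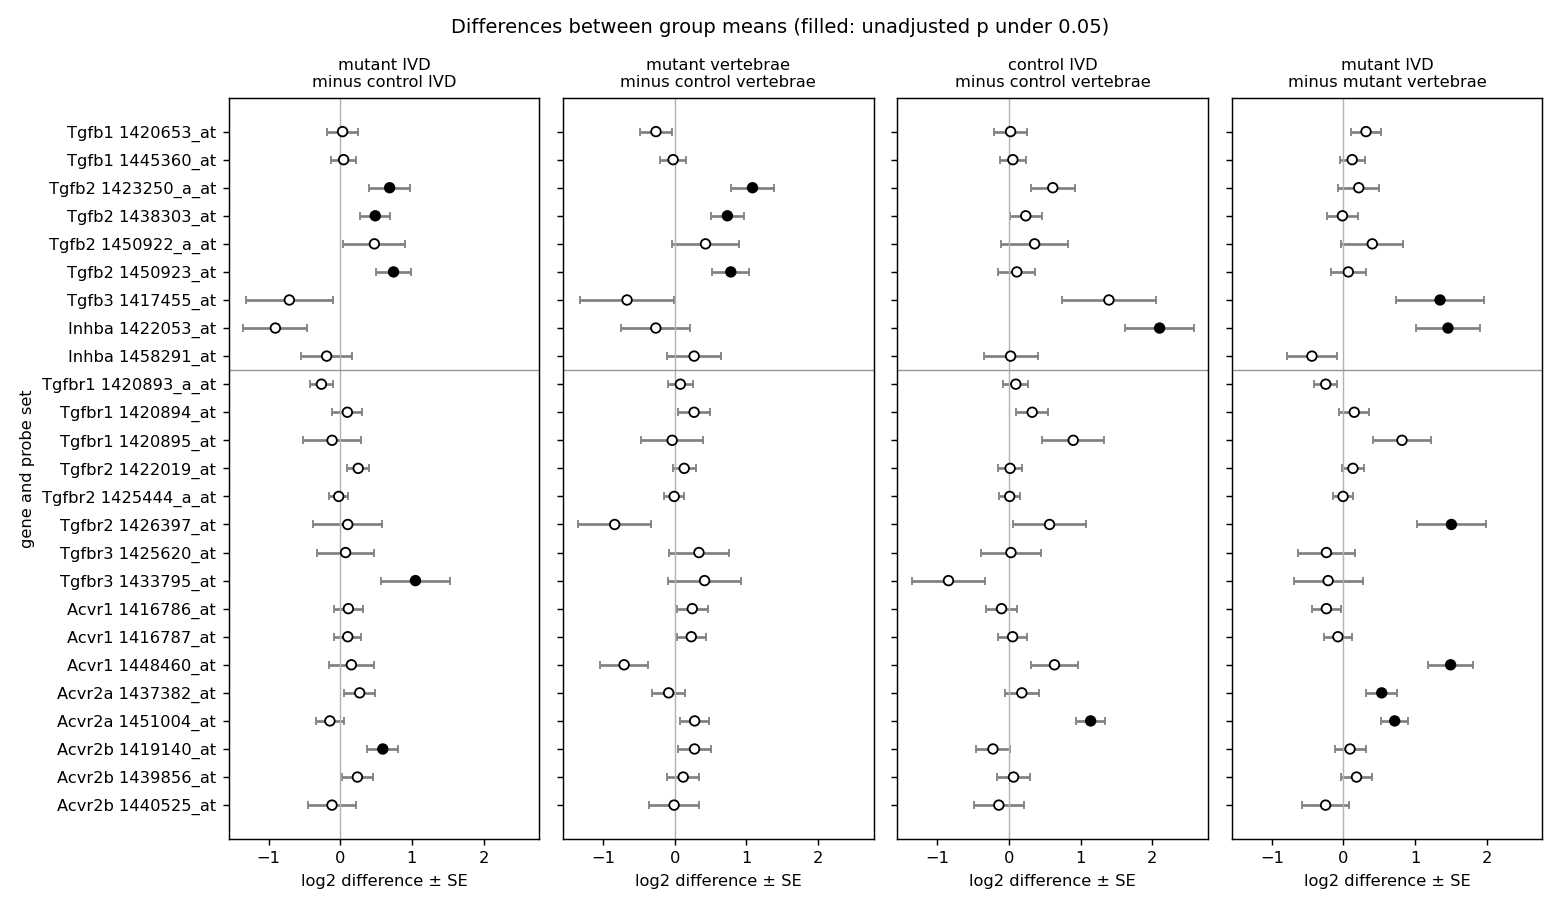
Log2 difference between group means (horizontal axis, ± standard error from limma) for the 25 member probe sets in 4 comparisons, with ligands above and receptors below the line. Filled points have an unadjusted p under 0.05: 3 Tgfb2 probe sets in either tissue between mutant and control, with 1 each of Tgfbr3 and Acvr2b in IVD, 1 each of Inhba and Acvr2a between the control tissues, and 2 of Acvr2a and 1 each of Tgfb3, Inhba, Acvr1 and Tgfbr2 between the mutant tissues.

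Other genes of the pathway were followed in 5 lists of 60 genes, of which 57 were measured, with 127 probe sets. At an unadjusted p under 0.05 in limma, 1 of these 127 had a higher and 1 a lower mean in mutant than in control IVD, and 2 had a higher and 1 a lower mean in mutant than in control vertebrae. Between the tissues, control IVD had a higher mean than control vertebrae for 11 and a lower one for 1, and mutant IVD than mutant vertebrae for 9 and 2. These were 1.57%, 2.36%, 9.45% and 8.66% of the 127, beside 3.13%, 2.61%, 2.45% and 8.07% of all probe sets, so the share between the mutant tissues was near that of all probe sets. None passed after adjustment. The list of TGF-β target genes held 23 probe sets of 11 measured genes. Of these, 21 had a higher mean in control IVD than in control vertebrae (median 0.60, 5 with an unadjusted p under 0.05) and 19 in mutant IVD than in mutant vertebrae (median 0.46, 4 with such a p). Of all probe sets, 46.3% and 46.7% had the higher mean in IVD in these comparisons, with medians of -0.02 in both. Between mutant and control, 8 of the 23 had a higher mean in mutant IVD (median -0.05) and 12 in mutant vertebrae (median 0.02). None of the 23 had an unadjusted p under 0.05 in these 2 comparisons in limma. Of all probe sets, 59.6% and 58.8% had the higher mean in mutants, with medians of 0.05 in both. Tgfbi, a secreted matrix protein that TGF-β induces, had the smallest p in this list between the tissues of either genotype. Its probe set 1415871_at had values of 3.06, 2.50, -1.45 and 1.66 in mutant IVD, against -1.19, -1.85 and -0.26 in mutant vertebrae. Here too the outlying IVD array was mutant IVD 3.

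Among the 28 probe sets of extracellular regulators, 2 had such a p between the control tissues, with the higher mean in IVD. They were 1436665_a_at of Ltbp4, a latent TGF-β binding protein (difference 1.34, standard error 0.41), and 1436223_at of Itgb8, a subunit of an integrin that activates latent TGF-β (difference 2.33, standard error 0.83). Itgb8 had a difference of 2.34 between the mutant tissues (standard error 0.77). Ltbp2, a further member of the latent binding protein family, differed by 1.62 between the mutant tissues (standard error 0.44, adjusted p = 0.31 from limma). The values of Itgb8 were 1.34, 0.00, -1.87 and 1.75 in mutant IVD, against -2.14, -1.93 and -2.03 in mutant vertebrae, and all mutant IVD arrays lay above the mutant vertebrae.

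Of 41 probe sets of Smads and intracellular regulators, Skil, which encodes the Smad corepressor SnoN, had the smallest p between the mutant tissues, where it differed by 1.81 (standard error 0.41, adjusted p = 0.23 from limma). It had values of 0.26, 0.84, -0.08 and 1.2 in mutant IVD, against -1.96, -1.67 and -0.15 in mutant vertebrae. Between mutant and control vertebrae Skil differed by -0.99 (standard error 0.44), and Tgfbrap1, which encodes a protein that binds TGF-β receptors, by 0.41 (standard error 0.18). Ski, the relative of Skil, differed by 0.51 between the mutant tissues (standard error 0.23). In IVD, Map3k7, which encodes the kinase TAK1, differed by 0.41 between mutant and control (standard error 0.18), and Fkbp1a, which encodes a protein that binds the type I receptor, by -0.31 (standard error 0.14). Between the control tissues Tgif1, a corepressor, differed by 0.39 (standard error 0.16) and Pmepa1, a TGF-β-induced feedback inhibitor, by 1.22 (standard error 0.53).

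The 25 probe sets of other receptors and coreceptors included Bambi, a pseudoreceptor that inhibits TGF-β and BMP signalling, which had lower means in IVD. It differed by -1.02 between the control tissues (standard error 0.40) and by -0.85 between the mutant tissues (standard error 0.38). Bmpr2, a type II receptor for BMPs, differed by 0.73 and 0.77 in the same comparisons (standard errors 0.32 and 0.30). Bmpr1a, a type I receptor for BMPs, differed by 0.43 between mutant and control vertebrae (standard error 0.19). The 10 probe sets of other ligands, such as Inhbb, Gdf11 and Nodal, held none with an unadjusted p under 0.05.

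The genes most like 3 members over the 13 arrays were listed by Pearson's r between gene means. For Tgfb3 they were Wif1 (r = 0.96), Nfatc1, Sgcb and Adamts6 (0.95 each) and Nfib (0.94), out of 18193 genes. For Inhba, whose mean follows 1422053_at, they were Arhgef26 (0.90), Igfbp7 and Csmd3 (0.89 each), Ssc5d (0.87) and Glt8d2 (0.86). For Tgfbr2, whose mean follows 1426397_at, they were Pdgfra (0.96) and C2cd3, Fam217b, Npepps and Zfp521 (0.94 each). These arrays share tissue, amplification and the outlying arrays named above, so the values describe likeness only.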

How the data were processed

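From each captured sample 50 ng of total RNA was amplified and hybridised to 1 array. According to the methods, the authors subtracted background and used RMA in GeneSpring with its defaults. The authors deposited log2 values, whose median over the arrays is 0 for each of the 45101 probe sets. Signal over background is thus not known, and precision depends on how many arrays a group has. After 64 control probe sets were left out, 45037 were tested, of which the annotation gave 34945 a single gene, 932 several and 9160 none. R 4.3.3 with limma 3.58.1 (lmFit, eBayes) and Python 3.11.15 were used, and tests were two-sided. The fit was also run on simulated independent normal values, without outlying arrays, pairing or sex differences. That run checked the signs and sizes of planted differences only and does not bear on the calls made here.

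The methods call the arrays biological replicates from several embryos. They state that vertebrae next to the discs were captured after them, and not which arrays share an embryo. Control arrays of equal number correlated across probe sets once group means were removed (r = 0.80, 0.57 and 0.57, consensus correlation 0.538), and only on this ground were they paired in the blocked fits of the controls. Correlations between control arrays of unequal number were not computed. Mutant arrays of equal number did not all correlate (r = -0.40, 0.24 and -0.15).

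The members, pathway lists and alternatives were chosen with earlier results of these data known. Every probe set of a member is reported. From each other list and comparison the rule names the 2 probe sets of smallest p among those with an unadjusted p under 0.05, and for Tgfb3, Inhba and Tgfbr2 the 5 genes of highest Pearson's r. Alternatives were fits of 2 groups alone, the unequal variance test named in the methods, replicate blocks, quantile normalisation, array weights, robust estimation with a trend, a Y-linked covariate, an SD filter, gene means and the omission of arrays. Leaving out mutant IVD 3 and mutant vertebrae 1 together was chosen after seeing the data.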

Additional observations from a re-analysis of the deposited data

Results flagged for a closer look

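In mutant IVD, the only group of 4 arrays, each of the 25 member probe sets was examined for 1 array far from the others, and chance flags about 1 in 20 such groups. There were 2. For Tgfbr2 1425444_a_at, mutant IVD 2 lay at 0.24 while the other mutant IVD arrays lay between -0.09 and -0.06. For Acvr2a 1451004_at, mutant IVD 4 lay at 0.00 while the others lay between 0.40 and 0.46. For Acvr2a 1451004_at, every mutant IVD array also lay below the mean of control IVD and every mutant vertebrae array above the mean of control vertebrae. In IVD the margin was small, with a highest mutant value of 0.457 and a control mean of 0.467. The medians went the other way, at 0.42 in mutant and 0.40 in control IVD. The mutant minus control difference was -0.14 in IVD (standard error 0.19), where its sign turned in 2 of 24 alternatives, and 0.28 in vertebrae (standard error 0.21). The difference between these effects was -0.42 (standard error 0.28, adjusted p = 1.0 from limma), so it did not pass the test.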

How the results depend on the processing

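Each member difference was refitted under 23 to 26 alternatives, and of all 100 differences (25 probe sets, 4 comparisons) 53 changed sign in at least 1. In 1 alternative, the gene mean, the value was that of all probe sets of the gene together. A change of sign there can reflect other probe sets of the gene and not the processing of the probe set itself. Of the 24 that had an unadjusted p under 0.05 or were followed by rule, 19 kept their sign under every alternative run for them. Between mutant and control IVD the count of called probe sets was 0, and 0 to 1 when 1 array was left out. Between the control tissues the count of 0 was 2 with array weights, 42 with the random replicate block, 32 with the fixed replicate block in the controls, 6 without mutant IVD 3 and mutant vertebrae 1, and 0 to 9 when 1 array was left out (9 without mutant IVD 3). Between the mutant tissues the count of 7 was 0 with the 2 groups alone, with the unequal variance test and with the fixed replicate block over all arrays, 1 with robust estimation, 3 with the Y-linked covariate, 29 without the 4 arrays with liver transcripts, 44 with the SD filter, 55 with array weights, 78 without mutant IVD 3 and mutant vertebrae 1, and 0 to 177 when 1 array was left out (177 without mutant IVD 3). Between mutant and control vertebrae and in the interaction it was 0 under each setting run (the unequal variance test and the fit of 2 groups do not apply to the interaction). The cause of these changes was not tested.

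The other 5 were between -0.02 and 0.13. For Tgfbr2 1425444_a_at the mutant minus control difference in IVD was 0.0128 with the fixed replicate block, 0.048 without the liver arrays, 0.111 as a gene mean, 0.000345 without both outlying arrays, and -0.1 to 0.0128 with 1 array left out. In vertebrae it was 0.0361 without the liver arrays and -0.0703 to 0.0361 with 1 array left out. For Tgfbr2 1426397_at the IVD difference was -0.168 with array weights and -0.367 to 0.392 with 1 array left out, and for 1422019_at the gene mean gave -0.237 in vertebrae. For Inhba 1458291_at the control tissues differed by -0.0498 with array weights and by -0.262 to 0.255 with 1 array left out. Outside the 24, larger differences turned too: Tgfb3 between mutant and control IVD (-0.71, or 0.04 without the liver arrays) and Tgfb2 1450922_a_at with the Y-linked covariate (-0.21 in IVD and -0.15 in vertebrae).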
